A study of Arabidopsis thaliana with 28 samples.

Results

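Of the 83 named families of transposable elements that the authors list as differing between caa39 and wild-type Arabidopsis thaliana seedlings, 7 belong to the MuDR superfamily and are not VANDAL elements. They were picked by annotation alone: the second part of the entry's name is MuDR and the first does not begin with VANDAL. They are ATDNAI27T9A, ATDNAI27T9B, ATDNAI27T9C, ATMU2, ATMU10, BRODYAGA2 and ATDNA1T9A. Another 4 of the 11 listed MuDR families are VANDAL elements. RNA came from the aerial parts of seedlings grown for 6 days, where 3 samples were Col-0 wild type and 3 were the caa39 mutant, described as biological replicates by the series design. The labels call the mutant caa39 and name no further allele or transgene, and the title of the series concerns topoisomerase VI, an enzyme that relieves tangles in DNA by cutting and rejoining it. The labels give 1 growth protocol for both genotypes and no treatment.

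MuDR elements, also called Mutator-like elements, are DNA transposons that a transposase excises and inserts elsewhere in the genome. They take their name from the autonomous element of the Mutator system of maize. Many copies in plant genomes lack a working transposase gene, and in Arabidopsis most copies are kept silent by DNA methylation and methylation of histone H3 at lysine 9. VANDAL elements are the branch of the superfamily without long terminal inverted repeats. For each of the 7 families the table gives a name, the superfamily and the class, but no function, copy number, length or genome position. A level is therefore a sum over all copies, and is not corrected for length or copy number. Where families are set side by side below, read totals and shares of reads are compared, not expression per copy or per length. In whole aerial parts fewer expressing cells and less RNA per cell cannot be told apart.

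The 7 families together had 1178 to 1361 reads per wild-type library, out of 16301 to 18997 in all named families. In caa39 they had 1026 to 1416 out of 14609 to 22681. Depth over the whole transcriptome was not used here. Reads per library were worked out from the deposited group means, so libraries carry the letters a to c, in order of size factor, and not the replicate numbers of the labels. For caa39 6 sets of library constants fitted, and the one with the least spread between libraries was used. Small spreads between caa39 libraries are therefore partly a result of that choice. Values, overlaps and ratios by caa39 library rest on that set, except where the next set is named. Levels below are normalised reads, meaning reads divided by the library's size factor, which was worked out from the same means. One read was worth 0.732 to 1.22 of them. Nothing beyond a genotype label checks the mutant here, since the table lists no genes.

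The 7 families went both ways. In caa39 ATDNAI27T9A rose 5.37-fold, ATDNAI27T9B 2.69-fold, ATMU2 1.88-fold and ATDNAI27T9C 1.84-fold in the authors' deposited table. ATMU10 fell to 0.644 of its wild-type level, BRODYAGA2 to 0.477 and ATDNA1T9A to 0.359 in the authors' deposited table. All 3 families named ATDNAI27T9 rose, while of the pair named ATMU one rose and one fell. Thus 4 of 7 were higher and 3 of 7 lower, against 48.2% higher and 51.8% lower over the 83 families. At an adjusted p of 0.05 every family of the authors' deposited table passed (100% of 83), because the table holds no family above that limit, so that all 7 passed says nothing particular to them. The median log2 fold change of the 7 was 0.88 and that of the 83 was −0.35, a description with no test. A change of at least 2-fold was listed for 4 of the 7, the rises of ATDNAI27T9A and ATDNAI27T9B and the falls of BRODYAGA2 and ATDNA1T9A, against 61.4% of the 83.

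**Figure D1:**
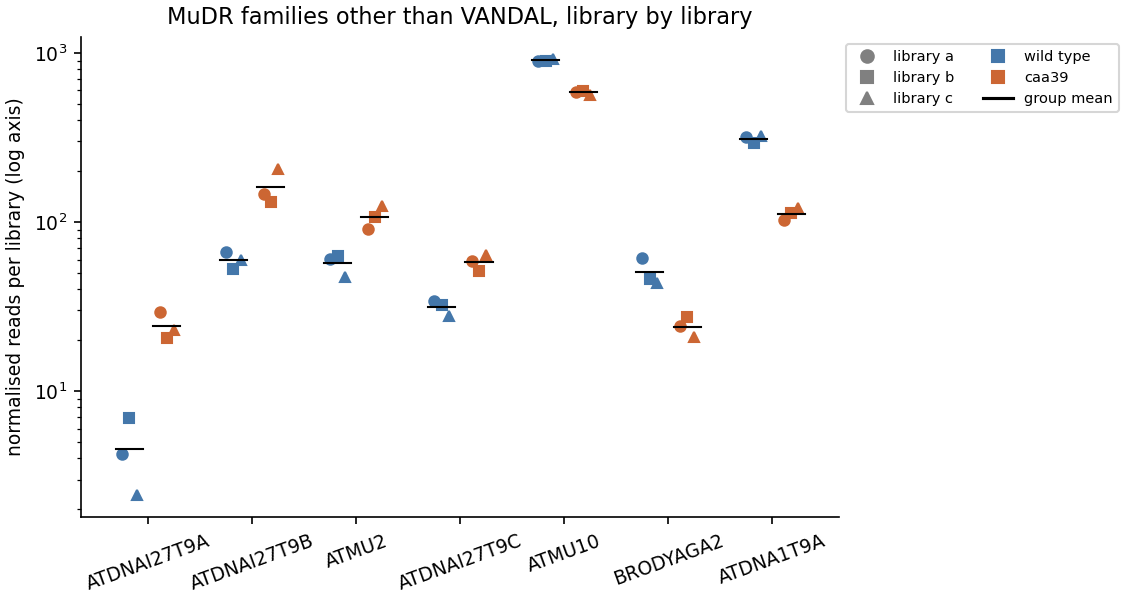
Normalised reads of each of the 7 families in every library on a log axis, wild type in blue and caa39 in orange, with a black line at the mean of each group of 3 libraries. With the library constants used, the libraries of the genotypes lie apart in all 7 families. They are closest for ATMU2, whose lowest caa39 library is 1.43 times the highest wild-type library.

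Counted library by library, the genotypes did not overlap in any of the 7 families, as in 98.8% of the 83. This count was made only with the caa39 constants chosen for least spread, a choice that favours separation. In limma on log2 of the normalised reads plus a pseudocount of 0.5, adjusted over the 83 families, 4 of the 7 were higher in caa39 (47.0% of the 83) and 3 lower (50.6% of the 83). The families had been listed for differing between these same libraries, so these p-values are no independent evidence of the difference.

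ATDNAI27T9A had the fewest reads of the 7 and the largest fold change. Its wild-type libraries a to c had 4, 6 and 2 reads, or 4.24, 6.91 and 2.43 normalised reads. Its caa39 libraries a to c had 40, 25 and 21 reads, or 29.3, 20.7 and 23.0 normalised reads. The lowest caa39 library was 2.99 times the highest wild-type one, although the wild-type libraries themselves spread 2.84-fold. Means were 4.53 ± 2.25 and 24.3 ± 4.46 normalised reads (SD, n = 3 each). The adjusted p in the authors' deposited table is 3.22e-04. The ratio of pooled reads was 5.41, with an exact 95% counting interval of 2.94 to 10.9 that covers counting error only. In the wild type the coefficient of variation was 49.8%, and counting alone would give 50.1% at this depth. In limma the log2 fold change was 2.39 ± 0.36 (SE; limma adjusted p = 0.00155), and 1.64 with a pseudocount of 5, a value above the wild-type mean itself.

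ATDNAI27T9B had the largest spread among caa39 libraries relative to counting error. Its wild-type levels in libraries a, b and c were 66.8, 53.0 and 59.6 normalised reads. Its levels in caa39 libraries a to c were 146, 131 and 205 normalised reads. Library c of caa39 stood above both others, at 1.56 times library b, and the lowest caa39 library was 1.97 times the highest wild-type library. Group means were 59.8 ± 6.90 and 161 ± 38.8 normalised reads (SD, n = 3 each), and the adjusted p in the authors' deposited table is 1.12e-08. The coefficient of variation was 24.1% in caa39, where counting alone would give 7.52%, and 11.5% in the wild type, where counting would give 13.8%. Without caa39 library c the limma log2 fold change was 1.21, against 1.40 ± 0.20 (SE) with all libraries (limma adjusted p = 0.00224 and 0.00123).

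ATDNAI27T9C had the smallest rise among the 4 families that rose and, of the 7, the deposited adjusted p closest to the threshold. Its wild-type levels in libraries a, b and c were 33.9, 32.3 and 28.0 normalised reads. Its levels in caa39 libraries a to c were 58.6, 51.3 and 63.5 normalised reads. Each group was tight and the groups were 1.51-fold apart at their nearest libraries. From 31.4 ± 3.08 normalised reads the mean rose to 57.8 ± 6.14 (SD, n = 3 each), and the authors' deposited table lists an adjusted p of 0.0203. The limma log2 fold change was 0.87 ± 0.13 (SE; limma adjusted p = 0.00138). With the next set of caa39 constants it was 0.86 ± 0.21 (SE; limma adjusted p = 0.00478).

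The 3 ATDNAI27T9 families together went from 95.7 ± 8.09 to 243 ± 44.5 normalised reads (SD, n = 3 each), a ratio of 2.54. Within their pooled reads the wild type and caa39 had 4.74% and 10.3% from ATDNAI27T9A, 32.8% and 24.1% from ATDNAI27T9C, and 62.5% and 65.6% from ATDNAI27T9B. Names this close may belong to families with similar copies, and no source used here says how a read matching several families was assigned. A share of reads between them is therefore uncertain. Whether they rose by different factors was tested on the log2 ratio of a pair of families within each library. Apart from the pseudocount, this measure does not depend on how libraries are scaled against each other. It does depend on the solved reads, which for caa39 come from the set of constants chosen for least spread. The SD, overlap and p of these ratios were not recomputed with the next set. The ratio of ATDNAI27T9A to ATDNAI27T9C went from −2.76 ± 0.57 to −1.24 ± 0.23 on the log2 scale, a difference of 1.52 with no overlap (SD, n = 3 each; p = 0.1 in a two-sided exact permutation test, adjusted p = 0.15 over 3 pairs). The ratio of ATDNAI27T9B to ATDNAI27T9C went from 0.92 ± 0.19 to 1.45 ± 0.20, a difference of 0.53 with no overlap (SD, n = 3 each; exact permutation test with p = 0.1, adjusted p = 0.15). For ATDNAI27T9A to ATDNAI27T9B the difference of 0.99 was within overlapping libraries (exact permutation p = 0.2, adjusted p = 0.2). The smallest p that 3 libraries against 3 allow is 0.1, so no pair could pass 0.05. With a pseudocount of 5 the differences of ATDNAI27T9A to ATDNAI27T9C and to ATDNAI27T9B shrank to 0.85 and 0.30. For ATDNAI27T9A to ATDNAI27T9B the difference was 0.65 without wild-type library c and 1.40 without wild-type library b.

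ATMU2 and ATMU10, both named in the ATMU series of Arabidopsis Mutator-like families, moved in opposite directions. In the wild type ATMU2 held 60.4, 63.4 and 47.4 normalised reads (libraries a to c). In caa39 it held 90.8, 107 and 124. All caa39 libraries were higher, and each group spread by about as much as the other, 1.34-fold in the wild type and 1.36-fold in caa39. ATMU2 thus averaged 57.1 ± 8.49 and 107 ± 16.4 normalised reads (SD, n = 3 each), and the authors' deposited table lists an adjusted p of 9.14e-04. The limma log2 fold change was 0.91 ± 0.17 (SE; limma adjusted p = 0.00346).

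ATMU10 had the most reads of the 7 and the smallest change, and it ranked 6 in mean normalised reads among the 83 families. Its wild-type levels in libraries a, b and c were 898, 897 and 926 normalised reads. Its levels in caa39 libraries a to c were 586, 600 and 567 normalised reads. Libraries of 1 genotype agreed within 1.06-fold, and the lowest wild-type library was 1.50 times the highest caa39 library. Its mean fell from 907 ± 16.6 to 584 ± 16.5 normalised reads (SD, n = 3 each), and the authors' deposited table lists an adjusted p of 6.58e-09. The coefficients of variation, 1.83% and 2.82%, were below the 3.55% and 3.89% that counting alone would give. The caa39 value rests on the set of constants chosen for least spread. The limma log2 fold change was −0.64 ± 0.08 (SE; limma adjusted p = 7.98e-04). With the next set of caa39 constants it was −0.65 ± 0.19 (SE; limma adjusted p = 0.0122). It was −0.33 with libraries scaled to their listed reads (limma adjusted p = 0.0107), and with median-of-ratios factors over the listed families it was −0.22 and no longer passed (limma adjusted p = 0.0768).

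That ATMU2 and ATMU10 changed unequally does not depend on how libraries are scaled against each other. For every 100 ATMU10 reads the wild type had 6.73, 7.06 and 5.12 ATMU2 reads (libraries a to c). In caa39 there were 15.5, 17.9 and 21.8. The ratio was 2.92-fold higher in caa39, with every caa39 library above every wild-type library. As ATMU2 was higher and ATMU10 lower in every caa39 library, this separation followed in advance and is no further evidence.

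ATDNA1T9A had the largest fall of the 7. Its wild-type levels in libraries a, b and c were 318, 293 and 325 normalised reads. Its levels in caa39 libraries a to c were 103, 112 and 120 normalised reads. The lowest wild-type library was 2.43 times the highest caa39 library. Means were 312 ± 16.9 and 112 ± 8.94 normalised reads (SD, n = 3 each). Its adjusted p of 9.44e-19 is the smallest among the 7 in the authors' deposited table. The limma log2 fold change was −1.48 ± 0.10 (SE; limma adjusted p = 1.49e-04). For every 100 ATMU10 reads the wild-type libraries had 35.4, 32.6 and 35.0 ATDNA1T9A reads and the caa39 libraries 17.5, 18.8 and 21.2. Relative to ATMU10, ATDNA1T9A thus stood at 0.558 of the wild type in caa39, with no overlap of libraries.

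BRODYAGA2 fell on few reads. Its wild-type libraries a to c had 58, 40 and 36 reads, or 61.5, 46.1 and 43.8 normalised reads. Its caa39 libraries a to c had 33, 33 and 19 reads, or 24.2, 27.3 and 20.8 normalised reads. Wild-type library a was the highest, and the lowest wild-type library was 1.60 times the highest caa39 library. The mean fell from 50.4 ± 9.63 to 24.1 ± 3.25 normalised reads (SD, n = 3 each), and the authors' deposited table lists an adjusted p of 0.00791. The ratio of pooled reads was 0.479, with an exact 95% counting interval of 0.361 to 0.633. The limma log2 fold change was −1.04 ± 0.18 (SE; limma adjusted p = 0.00215), and −0.63 with median-of-ratios factors (limma adjusted p = 0.0112). Per 100 ATDNA1T9A reads the wild type had 13.5 to 19.3 BRODYAGA2 reads and caa39 17.3 to 24.3, which overlap.

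**Figure D2:**
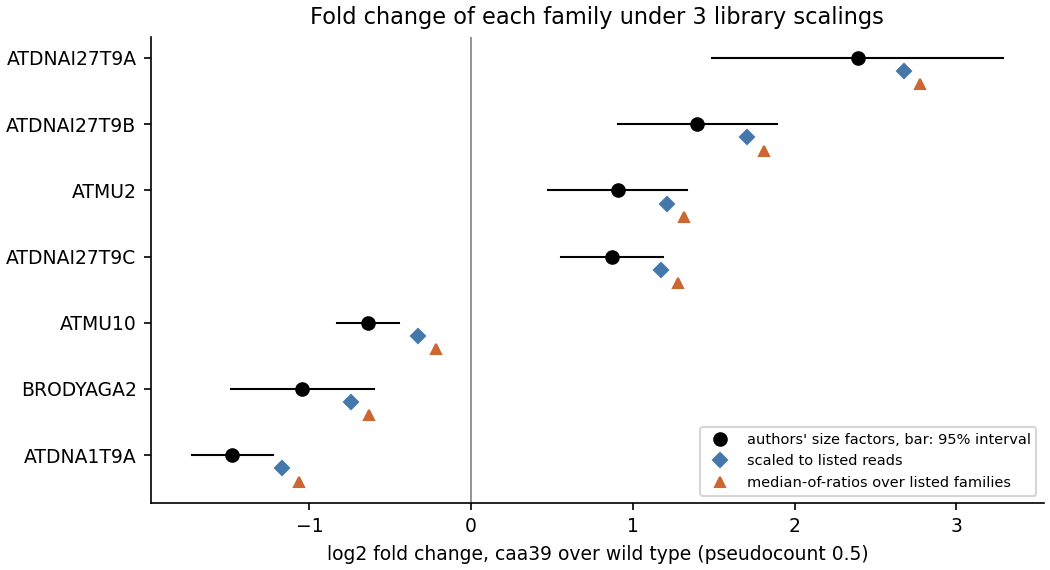
Log2 fold change of caa39 over wild type for each of the 7 families, as black points with 95% intervals from limma. These use the size factors worked out from the authors' means, which the legend calls the authors' size factors. Blue diamonds scale each library to its listed reads and orange triangles use median-of-ratios factors over the listed families. Both move every family upward by 0.29 to 0.42, and none crosses 0.

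How libraries are scaled bears on the sizes of these changes. With each library scaled to its listed reads, the median family of the 83 moved up by 0.31 on the log2 scale, and with median-of-ratios factors computed on the listed families by 0.41. Both scalings rest on families listed for having changed. With scaling to listed reads, limma still called 4 of the 7 higher and 3 lower, against 48.2% and 34.9% of the 83. With the median-of-ratios factors ATMU10 lost its call, and the other 6 kept direction and call under both.

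Summed over the 7 families the level went from 1422 ± 26.9 to 1070 ± 46.1 normalised reads (SD, n = 3 each), a ratio of 0.752. By library (a to c) the sum was 1443, 1391 and 1432 normalised reads in the wild type. In caa39 it was 1037, 1050 and 1123, each below every wild-type sum. ATMU10 made up 63.8% of the wild-type sum and 54.7% of the caa39 sum. The other 6 families summed to 515 ± 26.5 and 486 ± 60.6 normalised reads, with overlapping libraries (SD, n = 3 each). On listed reads the sum of the 7 stood at a log2 ratio of −0.10 with overlapping libraries, against −0.41, and with the median-of-ratios factors it turned to 0.01. As a share of reads in the named families the 7 took 6.55% to 7.23% of wild-type libraries and 6.24% to 7.02% of caa39 libraries, which overlap.

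**Figure D3:**
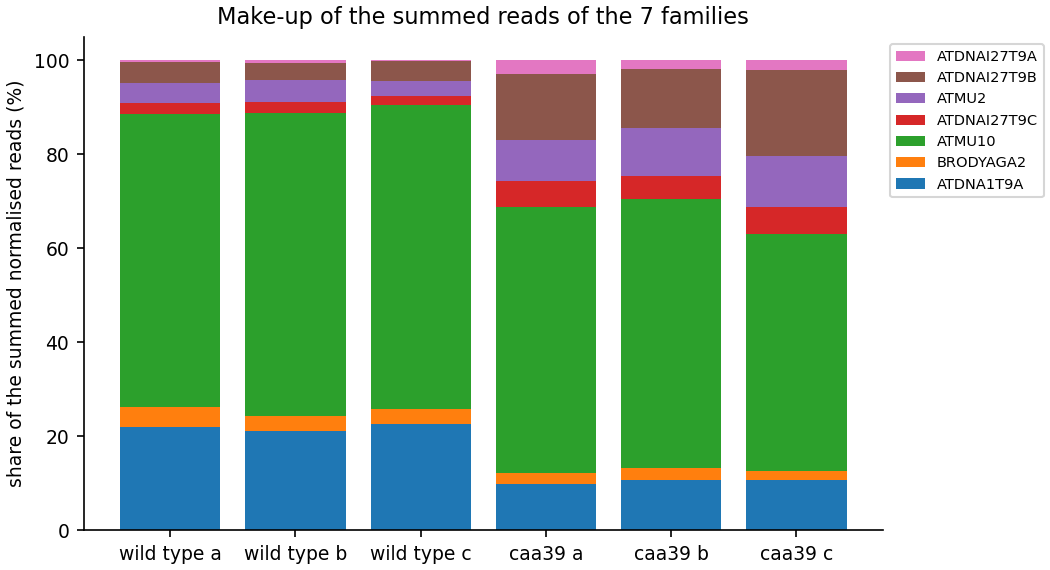
Share of each of the 7 families in their summed normalised reads, as stacked bars adding up to 100% in each library. ATDNA1T9A goes from 21.9% to 10.4% and ATDNAI27T9B from 4.20% to 14.9% between the means of the genotypes, while ATMU10 remains above 50% in every library.

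The make-up of the sum changed with the families' directions. The share of ATDNAI27T9B went from 4.20% ± 0.41 to 14.9% ± 2.95, that of ATMU2 from 4.02% ± 0.64 to 10.0% ± 1.15, and that of ATDNAI27T9C from 2.21% ± 0.22 to 5.39% ± 0.44 (SD, n = 3 each). The share of ATDNAI27T9A went from 0.320% ± 0.165 to 2.28% ± 0.473 (SD, n = 3 each). That of ATDNA1T9A went from 21.9% ± 0.83 to 10.4% ± 0.48 and that of BRODYAGA2 from 3.54% ± 0.64 to 2.26% ± 0.38 (SD, n = 3 each). Taking the families by direction, the 4 that rose went from 153 ± 14.2 to 350 ± 56.4 normalised reads and the 3 that fell from 1269 ± 30.1 to 720 ± 16.9 (SD, n = 3 each). Their split by direction fixes which way these sums go, so no test is given. Per 100 reads of the 3 that fell there were 12.9, 12.6 and 10.6 reads of the 4 that rose in the wild type (libraries a to c). In caa39 there were 45.5, 42.1 and 58.6, all higher, as the same split constructs.

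**Figure D4:**
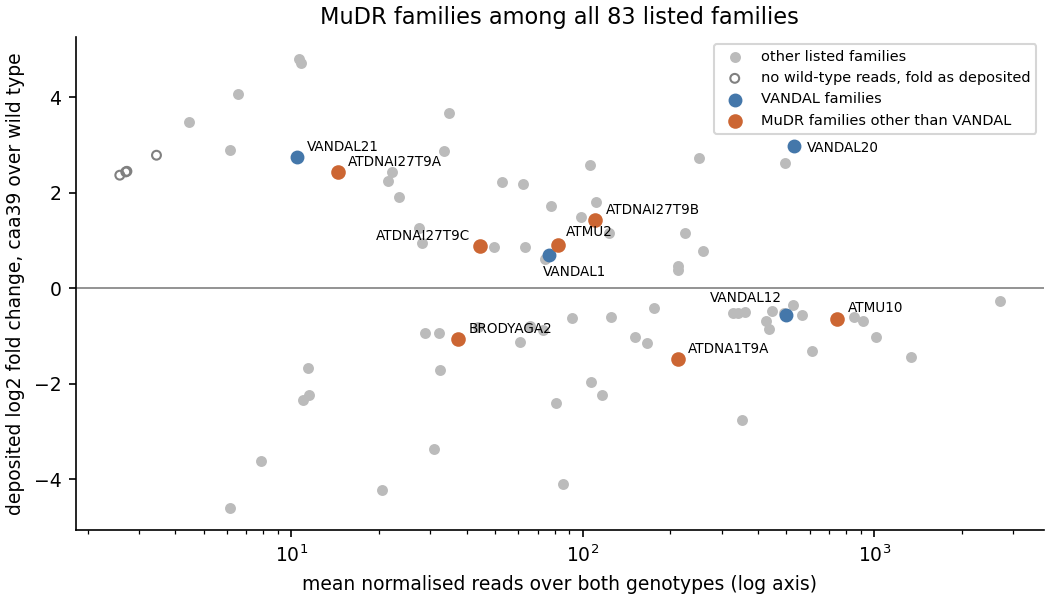
Deposited log2 fold change against mean normalised reads (log axis) for all 83 listed named families, with the 7 families in orange, the VANDAL families in blue and the rest in grey. Open circles are 4 families with no wild-type reads, whose deposited fold uses a listed wild-type mean of 1. The 7 families span −1.48 to 2.42 and stay inside the range of the list, −4.60 to 4.80.

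Set among the 83, the 7 families were not at the extremes of the list. ATDNA1T9A ranked 14 from the strongest fall among the 43 families that fell. No rank is given among the 40 that rose, since 4 of those had no wild-type reads and the table lists a wild-type mean of 1 for them. Whatever its sign, the log2 fold change had a median size of 1.07 in the 7 and 1.42 in the 83. In mean normalised reads the 7 ranged from 14.4 for ATDNAI27T9A to 746 for ATMU10, with a median of 82.2 against 80.7 for the 83.

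The 4 listed VANDAL families also went both ways, with 3 higher and 1 lower. VANDAL20, the one with the most reads over both genotypes, and VANDAL12, the next, stood at 7.87-fold and 0.679-fold in the authors' deposited table. The VANDAL sum went from 773 ± 15.8 to 1456 ± 40.3 normalised reads (SD, n = 3 each). VANDAL20 alone went from 120 ± 8.92 to 941 ± 46.1, and the other VANDAL families together from 653 ± 10.3 to 515 ± 10.97 (SD, n = 3 each). The difference between both groups of families was not tested, since their members were known to have changed when they were chosen.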

How the data were processed

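RNA of 3 wild-type and 3 caa39 samples was compared; the chromatin and bisulfite libraries were left out. Libraries were stranded mRNA libraries, per the labels' protocols. FastQC 0.10.1, Bowtie2, edgeR 1.12.0 and TAIR10 are listed in the submitters' processing notes, with no role given. No source used here states how reads were assigned to families or which program gave the p-values.

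The deposited signal of a family is a mean of normalised read counts made by the authors, overall and for each genotype, per the file headers, except that 4 families (none of the 7) with no wild-type reads are listed with a wild-type mean of 1. As a ratio, or fold, the authors divided the listed mean of caa39 by the listed mean of the wild type, for those 4 a stand-in, and deposited its log2 value beside it (recomputed within 6.4e-14). Each deposited p-value comes raw and adjusted by the authors, and no adjusted value exceeds 0.0499. The unassigned entry, 28.3% of listed reads, stayed out of tests.

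A group mean sums the whole reads of 3 libraries, each weighted by a constant of its library. The constants were found from integer relations between the smallest means (lattice reduction), with size factors allowed from 0.333 to 3. With the constants first found for a genotype, exactly 1 solution in whole reads existed for each mean. This held for 78 distinct wild-type means and 84 caa39 means, within a relative tolerance of 1e-14 plus an absolute one of 2e-13. The wild type had 1 set of constants. For caa39 there were 6, which split the same means into different whole reads. The one with the least spread was used (median coefficient of variation 12.0%, next 16.4%). It also had the fewest reads, and the 6 size factors then had a geometric mean of 1.00, against 1.21 to 1.49 otherwise. Size factors were 0.943, 0.868 and 0.823 for the wild type (a, b, c) and 1.37, 1.21 and 0.914 for caa39. Tested on simulated data, the solver returned 83 of 83 families in each genotype. The simulation used the size factors found here and the same dispersion for all families. It bears on the choice among the 6 sets only under those settings.

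limma 3.58.1 (R 4.3.3) was fitted across all 83 named families with Benjamini-Hochberg adjustment. Tested on simulated data of 83 families, it called 17 of 20 changed 2-fold, 20 of 20 changed 4-fold and 0 of 43 unchanged. The real families were all listed for differing, so these rates need not carry over to them. "Counting alone" means the coefficient of variation of Poisson sampling at the group's mean. Python 3.11.15, numpy 2.4.6, pandas 2.3.3, scipy 1.17.1 and matplotlib 3.10.9 served for the rest. All 7 families are named, and of the VANDAL families the 2 with most reads. Families, tests and lists were chosen with earlier results of these data known, and ratios between families within a library were added after the values were seen.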

Additional observations from a re-analysis of the deposited data

How the results depend on the processing

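For the 7 families 104 of 105 alternative log2 fold changes held both their sign and their call, and 0 turned. The alternatives were pseudocounts, a minimum mean, scalings, the unassigned entry in the fit, an intensity trend, the next set of library constants, and each library left out. The exception was ATMU10 with median-of-ratios factors, −0.22 (limma adjusted p = 0.0768, the highest over its alternatives), factors that centre the listed families on no change by construction. With the constants used, the libraries of all 7 lie apart, so neither leaving one out nor another pseudocount could turn a direction. A minimum mean, the unassigned entry and the intensity trend leave the log2 fold change as it was and bear on the call only. The next set of constants keeps the deposited group means, so it bears mainly on the spread and could hardly turn a sign. Only the scalings were a real check of direction. Of the 4 families that rose, 2 were left at a 2-fold minimum in the authors' deposited table, as stricter limits construct. The log2 ratio of the summed level was −0.41, and −0.10 on listed reads. With median-of-ratios factors it turned to 0.0096. Without ATDNAI27T9B, ATMU2 and ATDNAI27T9C it was −0.58, −0.50 and −0.46, and without ATMU10 and ATDNA1T9A −0.084 and −0.21, as leaving out a family that rose or fell constructs. No paired analysis was possible because only means of each genotype were deposited, and libraries solved from them have no replicate number. Depth limits ATDNAI27T9A most, with 12 wild-type reads in all.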
